A study of Mus musculus with 8 samples.

Results

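DNA replication and mitosis genes were followed in cultured mouse haematopoietic stem and progenitor cells (HSPCs) after knockdown of Pcgf1, which encodes a subunit of the Polycomb complex PRC1.1. The set holds 42 genes chosen by name for their role in the cell cycle, 21 of S phase and 21 of G2 and mitosis (called M phase here). Of these 40 had a probe that matched by RefSeq accession, 20 in each list. Gins1, a subunit of the replicative helicase, and Mki67, the proliferation antigen Ki-67, had no matched probe, so their levels are not analysed here. The 40 were read among 17299 genes in all, each by its brightest probe. Of the 17299, 11740 carried a gene symbol, and the others were counted under the identifier that the array gives their target. All 40 were well above background on 8 of 8 arrays, so the filter on dim probes removed none of them.

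Marrow was taken from 4 Runx1 Δ/Δ animals with a background of mixed C57Bl/6 and 129SvJ origin, and both groups carry this deletion. How and in which cells Runx1 was deleted, and the age of the mice, are not given in the sources used here. Lineage-depleted marrow was grown for 2 days with 4 cytokines, SCF at 50 ng/ml, Flt3 ligand and IL-11 each at 100 ng/ml, and IL-3 at 10 ng/ml. Each mouse gave 1 culture with a retroviral control shRNA and 1 with an shRNA against Pcgf1. Selection with puromycin (5 µg/ml) began 24 h after the virus and lasted 36 h. Each group held 4 arrays, 1 per mouse. Mice 1 and 2 shared a slide, as did mice 3 and 4, so each slide held both groups.

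Values are log2 signals relative to the 75th percentile of each array, and a change is the mean with the Pcgf1 shRNA minus the mean with the control shRNA. On the arrays 54.8% to 62.0% of 43379 spots were well above background and 0 were saturated, and the number of arrays limits the precision. Pcgf1 itself fell to 39.0% of its control level and was lower in 4 of 4 mice (limma adjusted p 0.0197). The 9 HSPC markers, among them Kit, Ptprc and Myb, were above background on all 8 arrays, and Cd34 rose by 0.94 (limma adjusted p 0.0251). The 11 measured erythroid markers were also above background on all 8 arrays. In such bulk RNA, fewer cells of a type and less RNA per cell cannot be told apart.

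A dividing cell copies its DNA once per cycle. In G1 the loading factors CDC6 and CDT1 place the ring of MCM2 to MCM7 on origins, and in S phase CDC45 and the GINS complex turn the ring into the active helicase. E2F proteins switch on many of these genes. Later in the cycle a complex that binds so-called CHR elements acts with B-MYB (Mybl2), FOXM1 and the CCAAT-binding factor NF-Y on genes of G2 and mitosis.

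The members differ by phase in the letters of their promoters. Mcm6, Ccnb2 and Top2a are shown as examples of that difference, Cdk1 as its exception, the 1 M-phase gene with E2F letters, and E2f2 as the member with the largest change in the measurements. Windows of 300 bases (250 before to 50 after the start) came from RefSeq, build GRCm38.p6, and covered 35 of the 42 genes, Mki67 among them. Searched on both strands were the E2F letters TTTCCCGC, TTTCGCGC, TTTGCCGC and TTTGGCGC, the letters CCAAT, and the CHR letters TTTGAA and TTCGAA. Capitals mark every match, and matches can overlap or touch. The window of Mcm6, a helicase subunit (chr1:128359656-128359955, minus strand), held 3 E2F and 2 CCAAT matches. E2f2, which encodes an activating E2F protein, has windows at both of its starts. The first (chr4:136172024-136172323, plus strand) held 1 E2F match and 1 CCAAT match, and the second (chr4:136180532-136180831, plus strand) held 3 CCAAT matches and 1 CHR match. Cdk1, the mitotic kinase (chr10:69352863-69353162, minus strand), held 3 CCAAT, 2 CHR and 1 E2F match. Ccnb2, a B-type cyclin (chr9:70421505-70421804, minus strand), held 3 CCAAT and 2 CHR matches. Top2a, the topoisomerase that untangles sister chromatids (chr11:99024140-99024439, minus strand), held 6 CCAAT and 4 CHR matches.
Mcm6: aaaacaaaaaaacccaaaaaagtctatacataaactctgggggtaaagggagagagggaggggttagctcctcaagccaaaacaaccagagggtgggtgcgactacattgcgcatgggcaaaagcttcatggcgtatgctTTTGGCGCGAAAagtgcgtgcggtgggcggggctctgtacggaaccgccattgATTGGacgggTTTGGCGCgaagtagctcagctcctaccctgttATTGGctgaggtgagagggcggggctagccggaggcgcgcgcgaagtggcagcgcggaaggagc
E2f2, first start: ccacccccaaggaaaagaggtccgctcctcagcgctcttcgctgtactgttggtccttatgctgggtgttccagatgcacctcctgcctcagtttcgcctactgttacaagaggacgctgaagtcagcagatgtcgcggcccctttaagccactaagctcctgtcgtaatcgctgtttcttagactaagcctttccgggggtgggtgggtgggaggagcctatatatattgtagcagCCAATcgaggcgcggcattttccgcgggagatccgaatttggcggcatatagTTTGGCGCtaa
E2f2, second start: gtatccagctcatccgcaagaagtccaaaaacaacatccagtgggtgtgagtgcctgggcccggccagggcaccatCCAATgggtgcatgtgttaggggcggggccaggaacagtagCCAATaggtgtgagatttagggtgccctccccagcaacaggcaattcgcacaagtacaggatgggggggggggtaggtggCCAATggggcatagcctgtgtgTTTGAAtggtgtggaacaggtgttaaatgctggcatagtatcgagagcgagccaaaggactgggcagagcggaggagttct
Cdk1: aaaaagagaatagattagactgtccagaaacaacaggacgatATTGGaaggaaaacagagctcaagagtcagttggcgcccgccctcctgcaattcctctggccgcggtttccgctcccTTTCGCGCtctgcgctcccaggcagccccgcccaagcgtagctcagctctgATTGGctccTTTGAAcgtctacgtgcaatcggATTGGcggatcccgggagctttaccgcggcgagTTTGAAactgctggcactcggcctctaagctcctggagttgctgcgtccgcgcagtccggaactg
Ccnb2: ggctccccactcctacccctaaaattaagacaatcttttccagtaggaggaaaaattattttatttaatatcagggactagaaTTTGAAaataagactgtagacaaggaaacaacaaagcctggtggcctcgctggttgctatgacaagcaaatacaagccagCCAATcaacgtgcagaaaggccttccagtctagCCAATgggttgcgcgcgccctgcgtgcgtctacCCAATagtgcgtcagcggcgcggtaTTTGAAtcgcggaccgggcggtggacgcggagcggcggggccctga
Top2a: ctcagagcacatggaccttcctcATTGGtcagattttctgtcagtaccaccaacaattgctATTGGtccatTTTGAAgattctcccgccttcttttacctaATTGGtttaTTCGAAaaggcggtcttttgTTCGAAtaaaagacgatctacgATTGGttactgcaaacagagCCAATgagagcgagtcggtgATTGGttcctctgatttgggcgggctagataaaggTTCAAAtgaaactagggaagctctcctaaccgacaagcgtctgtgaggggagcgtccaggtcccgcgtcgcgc

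Across the set, E2F letters were found for 8 of 18 S-phase genes (44.4%) and 1 of 17 M-phase genes (5.88%), against 2.60% of 27025 genes with a window. CHR letters were found for 5 of 18 S-phase genes (27.8%) and 13 of 17 M-phase genes (76.5%), against 21.7% of all genes. CCAAT was present for 11 of 18 (61.1%) and 15 of 17 (88.2%), against 41.1%. The windows of E2f1 and Mybl2 held 0 matches of any kind. Both lie wholly inside the annotated bounds of their gene, so the sequence around its outermost start was not searched. These counts describe letters in the windows and not binding.

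After knockdown of Pcgf1 the replication and mitosis transcripts stayed close to their control levels. The median log2 change was 0.01 over the S-phase members and 0.00 over the M-phase members, against 0.00 over all genes tested. Of the 40 members 21 stood higher and 19 lower, and 39 of them lay between −0.14 (Ccnb2) and 0.19 (Mybl2). E2f2 alone lay outside this range, at −0.71. The median size of a change, regardless of sign, was 0.05 over the members and 0.12 over all genes, and the median standard errors were 0.10 and 0.13.

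No member passed an adjusted p of 0.05 (limma across all genes, Benjamini-Hochberg), where 0.763% of all genes did. With mouse as a block, which uses the pairing of the cultures, again 0 of 40 passed, where 5.32% of all genes did. At an unadjusted p of 0.05 limma counted 1 member, E2f2, with and without the block, against 12.2% of all genes without the block and 23.5% with it. A p that misses the threshold does not show equal levels. The 95% interval of the change lay within a 1.5-fold change either way (log2 0.58) for 39 of 40 members, against 67.2% of all genes. With the block it was 39 of 40, against 79.4%. The exception was E2f2 in both fits. Among the other members the lowest bound of an interval was −0.38 (Cenpf) and the highest was 0.44 (Kif11). The shares over all genes are not matched to the members for signal. A gene was kept if it was above background on 4 of 4 arrays of either group, while all 40 members were so on 8 of 8.

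**Figure D1:**
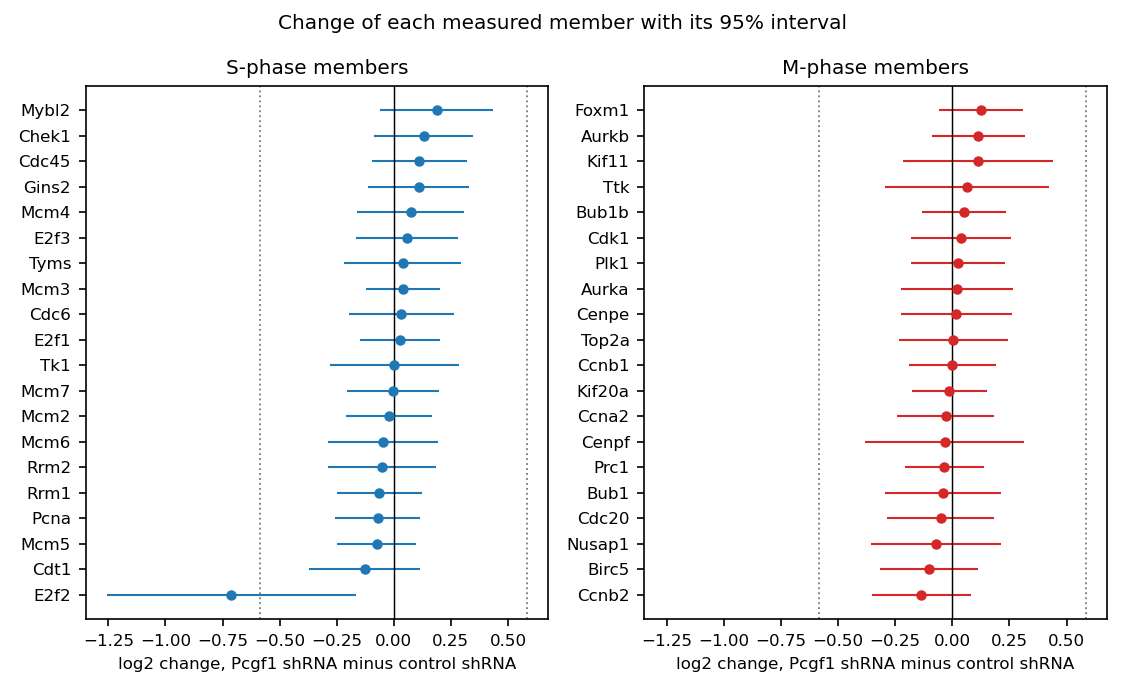
Log2 change of each of the 40 measured members (x axis, Pcgf1 shRNA minus control shRNA; points) with its 95% interval from limma without a block (bars; up to 4 arrays per group), S-phase members left and M-phase members right; dotted lines mark a 1.5-fold change. All intervals but that of E2f2 (−1.26 to −0.17) cross 0 and stay between the dotted lines.

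The 6 genes of the helicase ring varied little. Mcm2 read 3.82, 3.83, 3.75 and 4.03 in mice 1 to 4 with the control shRNA and 3.87, 3.79, 3.83 and 3.85 with the Pcgf1 shRNA. Mcm3 read 4.21, 4.25, 4.17 and 4.28 with the control and 4.26, 4.28, 4.32 and 4.19 with the knockdown. In both genes the groups overlap, and the knockdown array of mouse 4 lay below its control. Mcm4 read 5.46, 5.41, 5.49 and 5.76 against 5.44, 5.62, 5.68 and 5.67. Mcm5 read 5.26, 5.39, 5.34 and 5.49 against 5.30, 5.31, 5.32 and 5.25. For Mcm4 and Mcm5 mouse 4 gave the highest control array, and the groups overlap again. Mcm6 read 7.00, 7.18, 7.06 and 6.97 against 7.13, 7.09, 7.05 and 6.75. Mcm7 read 5.56, 5.81, 5.67 and 5.85 against 5.72, 5.80, 5.67 and 5.68. Their groups overlap too. The changes of the 6 genes ran from −0.08 (Mcm5) to 0.07 (Mcm4), with limma adjusted p values of 0.743 or more.

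Loading and assembly factors leaned both ways without passing. Cdt1, which brings the ring to origins, read 5.08, 5.36, 5.28 and 5.53 with the control shRNA and 5.25, 5.23, 5.14 and 5.13 with the Pcgf1 shRNA, a change of −0.13 (SE 0.11, limma adjusted p 0.686). It was higher in mouse 1 and lower in the other mice. Cdc45, which helps to activate the helicase, read 1.06, 0.99, 0.99 and 1.23 against 1.10, 1.17, 1.32 and 1.14, a change of 0.11 (SE 0.09, limma adjusted p 0.672). Here mice 1 to 3 were higher and mouse 4 lower. Cdc6, the other loading factor, stood at 0.03 and Gins2, a GINS subunit, at 0.11.

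Genes of nucleotide supply, the sliding clamp and the checkpoint shifted by little. The ribonucleotide reductase genes Rrm1 and Rrm2 differed by −0.06 and −0.05, thymidylate synthase (Tyms) by 0.04 and thymidine kinase (Tk1) by 0.00. Pcna, the clamp that holds the polymerase on DNA, read 6.12, 6.24, 6.22 and 6.40 with the control and 6.16, 6.21, 6.16 and 6.16 with the knockdown, a change of −0.07 with an interval of −0.26 to 0.11. The knockdown arrays sat inside the range of the controls. Chek1, a kinase of the replication checkpoint, read −0.45, −0.36 and −0.27 in mice 1, 2 and 4 with the control and −0.36, −0.21, −0.14 and −0.21 in mice 1 to 4 with the knockdown. The control value of mouse 3 was left out because its spot was marked non-uniform, so the fit used 3 control and 4 knockdown arrays. Its change was 0.13 (SE 0.09, limma adjusted p 0.635), and the knockdown array was the higher one in 3 of 3 mice. In the authors' deposited table, which keeps the control value of mouse 3, the direction turned, with a change of −0.12. A second Chek1 probe, above background on 4 of 4 arrays of each group, changed by 0.08 in the spot files (limma adjusted p 0.824).

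Among the transcription factor genes of S phase, E2f2 had the largest change. E2f2 (chr4:136172274-136196057, 1 probe on the array) read 3.38, 4.11, 3.65 and 3.96 in mice 1 to 4 with the control shRNA, a mean of 3.78 ± 0.33 (SD, n = 4). With the Pcgf1 shRNA it read 3.01, 3.11, 2.54 and 3.59, a mean of 3.06 ± 0.43 (SD, n = 4). The knockdown array was the lower one in 4 of 4 mice, but the groups overlap, since the knockdown array of mouse 4 exceeds the control array of mouse 1. The log2 change was −0.71 (SE 0.24, interval −1.26 to −0.17), which leaves 61.1% of the control signal. It did not pass over all genes, with a limma adjusted p of 0.273, or 0.271 with slide as a block and 0.0593 with mouse as a block. The unadjusted limma p was 0.0166 without a block and 0.00399 with mouse as a block. On the slide of mice 1 and 2 the change was −0.69 and on that of mice 3 and 4 it was −0.74.

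E2f1 and E2f3, which encode the other activating E2F proteins of the set, stayed near 0. E2f1 read 1.81, 1.85, 1.80 and 1.78 with the control and 1.93, 1.81, 1.90 and 1.71 with the knockdown, a change of 0.03 with an interval of −0.15 to 0.20. E2f3 read −0.59, −0.68, −0.57 and −0.70 against −0.50, −0.47, −0.51 and −0.82, a change of 0.06 with an interval of −0.17 to 0.28. In both genes the groups overlap, and the knockdown array of mouse 4 lay below its control. The difference between E2f2 and these genes was not tested. Mybl2, a target of E2F proteins that acts on mitotic genes, read 2.96, 2.98, 3.03 and 2.95 with the control and 3.34, 3.15, 3.29 and 2.89 with the knockdown. Its change was 0.19 (SE 0.11, limma adjusted p 0.550), with mice 1 to 3 higher and mouse 4 lower.

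E2f2 and the erythroid markers, which include Klf1, Gata1 and Hba-a1, differed side by side. E2f2 differed by −0.37, −1.0, −1.11 and −0.37 within mice 1 to 4, and the median over the 11 measured erythroid markers of the 12 listed differed by −0.29, −1.06, −1.32 and −0.43. Both were lowest in mouse 3 and next lowest in mouse 2, an order that other marker lists shared. The medians were 0.26, −0.35, −0.71 and 0.23 over 6 megakaryocyte markers and −0.10, −0.44, −0.70 and −0.12 over 3 measured markers of stroma and endothelium. Medians of 9 monocyte and macrophage markers (−0.52, −0.44, −0.69 and −0.23) and of 4 measured eosinophil markers (−0.40, −1.42, −2.21 and −1.79) were also lowest in mouse 3. The other 19 S-phase members had medians of 0.08, −0.01, 0.11 and −0.17. The summed erythroid signal ran from 155 to 347 on the control arrays and from 67.8 to 256 on the knockdown arrays (75th percentile of an array = 1). All 11 erythroid markers stood lower in the fit, of which 0 passed without a block (2 at an unadjusted limma p of 0.05) and 4 fell with mouse as a block. The 11 measured neutrophil maturation markers of 12 had medians of −1.10, −1.71, −2.05 and −2.35 in mice 1 to 4. Of these 4 fell without a block, and with mouse as a block 9 fell and 1 rose. Cxcr2 was the 1 marker that stood higher (0.54 in the fit without a block). Their summed signal ran from 87.4 to 237 on control and from 13.3 to 46.9 on knockdown arrays, and Mmp9 was above background on no array. The part of any of these cell types in the E2f2 value was not tested.

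**Figure D2:**
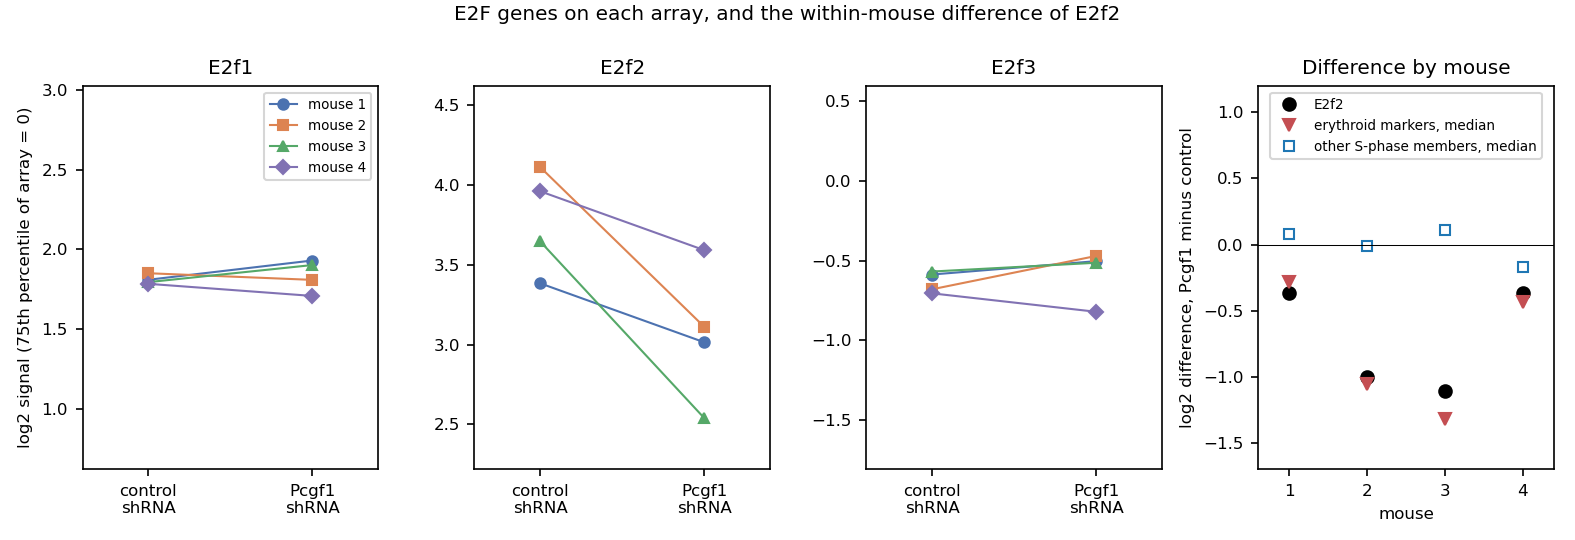
Log2 signal of E2f1, E2f2 and E2f3 on each array (left panels; lines join both cultures of a mouse; each axis covers the same span), and the within-mouse difference of E2f2 beside the medians of 11 erythroid markers and of 19 other S-phase members (right panel). E2f2 is lower with the Pcgf1 shRNA in 4 of 4 mice and lowest in mouse 3 (−1.11), where the erythroid median is also lowest (−1.32). Medians of megakaryocyte, stroma and endothelium, monocyte and macrophage, and eosinophil markers, not drawn here, are lowest in mouse 3 as well.

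Cyclin genes of G2, their kinase and Foxm1 lay close to 0. Ccnb2 read 5.19, 5.47, 5.26 and 5.46 with the control shRNA and 5.23, 5.29, 5.10 and 5.23 with the Pcgf1 shRNA, a change of −0.14 (SE 0.09, limma adjusted p 0.621). It was lower in mice 2, 3 and 4. Foxm1, a transcription factor of mitotic genes, read 1.56, 1.60, 1.71 and 1.54 against 1.73, 1.78, 1.79 and 1.60, a change of 0.12 (SE 0.08, limma adjusted p 0.594). It was higher in 4 of 4 mice, with overlapping groups. The cyclin genes Ccnb1 and Ccna2 differed by 0.00 and −0.03, and Cdk1, whose kinase they activate, by 0.04.

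Mitotic kinase and checkpoint genes leaned either way. Aurkb, the kinase of the chromosomal passenger complex, read 1.06, 1.16, 1.07 and 1.36 with the control and 1.23, 1.33, 1.27 and 1.28 with the knockdown, a change of 0.11 (SE 0.09, limma adjusted p 0.664). Birc5 (survivin), its partner in that complex, read 5.31, 5.47, 5.46 and 5.66 against 5.40, 5.46, 5.37 and 5.26, a change of −0.10 (SE 0.09, limma adjusted p 0.716). Groups overlap for both partners, and mouse 4 was lower in both. Plk1 and Aurka, kinases of mitotic entry and the spindle poles, differed by 0.02 and 0.02. Of the spindle checkpoint genes, Bub1 differed by −0.04, Bub1b by 0.05 and Ttk by 0.06, the last with the widest interval of a member other than E2f2 (−0.30 to 0.43). Cdc20, the activator of the anaphase-promoting complex that the checkpoint holds back, differed by −0.05.

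Motor, kinetochore and spindle genes had a median change of −0.02, with 2 of 6 higher and 4 lower. Kif11, the motor that pushes spindle poles apart, read −0.25, −0.29, −0.45 and 0.05 with the control and −0.41, −0.13, −0.06 and 0.11 with the knockdown, a change of 0.11 (SE 0.14, limma adjusted p 0.806). Mouse 4 gave the highest array of each group. The kinetochore genes Cenpe and Cenpf differed by 0.02 and −0.03, the midzone genes Prc1 and Kif20a by −0.03 and −0.01, the spindle gene Nusap1 by −0.07 and Top2a by 0.00. Of the 40 members 10 had more than 1 probe above background, and the changes of probes of the same gene differed by at most 0.19 (Cenpe).

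Groups that did not overlap were found for 0 of 39 members with all 8 values, where 7.16% of all genes had them. A shift in the same direction in 4 of 4 mice was found for 2 of these 39 (E2f2 lower, Foxm1 higher), against 31.8% of all genes.

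The S-phase and M-phase medians had the same sign in mice 1, 3 and 4 and opposite signs in mouse 2. The S-phase medians of the within-mouse differences were 0.07, −0.02, 0.11 and −0.18 in mice 1 to 4, and the M-phase medians were 0.05, 0.03, 0.05 and −0.15. The difference between the medians, S minus M, was 0.02, −0.05, 0.06 and −0.04, with a mean of 0.00 ± 0.05 (SD, n = 4 mice) and no common sign. Over the fitted changes it was 0.01.

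Mouse 4 stood apart in both lists. With the Pcgf1 shRNA 34 of 40 members were lower in mouse 4 (19 of 20 S-phase and 15 of 20 M-phase members), where 57.7% of all genes were lower. In mice 1, 2 and 3 there were 12 of 40, 19 of 40 and 12 of 39 lower members. Relative to its own mean over the 8 arrays, the median S-phase member stood at −0.07, −0.01, −0.04 and 0.17 on the control arrays and at −0.02, 0.04, 0.05 and −0.05 on the knockdown arrays. The M-phase median stood at −0.10, 0.02, −0.01 and 0.14 against −0.02, 0.04, 0.04 and −0.04. For both lists the control array of mouse 4 was the highest of the 8, and its knockdown array was the lowest of its group. Without mouse 4 the median change was 0.07 over the S-phase and 0.05 over the M-phase members, and 0 members passed. Each mouse gave 1 array per group, so the shift within a single mouse has no replicate check.

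**Figure D3:**
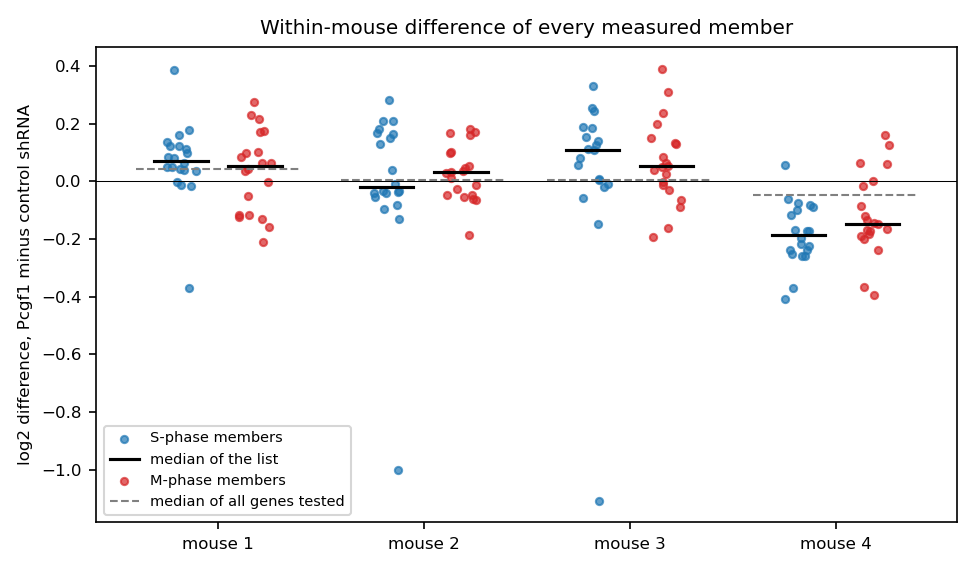
Difference between the Pcgf1 and control shRNA arrays of each mouse (y axis, log2) for every measured member, S-phase in blue and M-phase in red, with the list medians (black) and the median of all genes tested (dashed). In mouse 4 the medians lie at −0.18 and −0.15, below the −0.05 of all genes, and the lowest S-phase points in mice 1 to 3 are E2f2.

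Other genes of both programmes were read in the same way. Of 52 other replication genes, all measured, limma called 0 with and without mouse as a block (0 at an unadjusted p of 0.05 without it and 2 with it). Of these 30 stood higher and 22 lower, and the median change was 0.01. Those with the smallest p were the cyclin gene Ccne2 (−0.24, SE 0.11), the exonuclease gene Exo1 (0.20, SE 0.10), the DNA ligase gene Lig1 (−0.19, SE 0.10) and Dbf4, which activates the CDC7 kinase (0.19, SE 0.10). Their limma adjusted p values lay between 0.441 and 0.511. Of 48 measured among 50 other mitosis genes limma also called 0 either way (0 unadjusted without the block and 2 with it). Here 29 stood higher and 19 lower, and the median was 0.03. The smallest p belonged to the kinetochore gene Spc24 (−0.19, SE 0.08), the mitotic kinase gene Pbk (0.21, SE 0.09), Wee1, whose kinase restrains CDK1 (0.26, SE 0.13), and the separase gene Espl1 (0.13, SE 0.07), with limma adjusted p values of 0.437 to 0.532. Kifc1 and Ncapg had no matched probe.

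In mouse 4, 47 of 52 other replication genes and 33 of 48 other mitosis genes were lower, with medians of −0.16 and −0.08. On the control array of mouse 4 their median levels, 0.19 and 0.13, were again the highest of the 8.

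**Figure D4:**
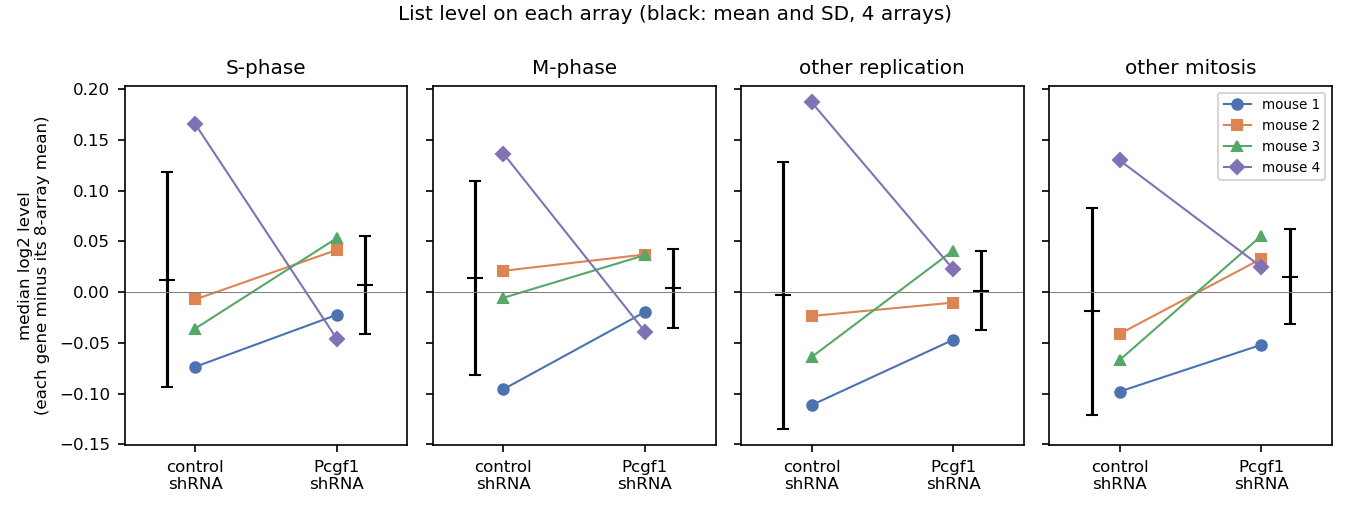
Median log2 level of the genes of each list on each array, each gene taken relative to its mean over the 8 arrays (points; lines join the cultures of a mouse; black bars give the mean and SD of 4 arrays). The control array of mouse 4 is the highest point of all 4 lists (0.17, 0.14, 0.19 and 0.13), and the group means differ by less than the SD.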

How the data were processed

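RNA (400 ng a culture) was hybridised to one-colour Agilent whole-genome arrays, which were read with Agilent Feature Extraction 10.1 per the submitters' processing notes. Spot intensity is deposited after local background subtraction and detrending and without normalization between arrays, per the file headers. The authors also deposited log2 values with each probe centred on its median over the arrays. Against the spot files (within-mouse differences, 21537 probes) scale and direction were the same, and the table's differences were shifted by −0.01, 0.00, −0.02 and 0.00 in mice 1 to 4. The shift of single arrays is not known, since each probe was centred. Column medians of this table were 0.05, 0.11, 0.10 and −0.13 (control, mice 1 to 4) and 0.10, −0.05, −0.11 and −0.20 (Pcgf1 shRNA).

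Log2 intensity was set to 0 at each array's 75th percentile, 242 non-uniform spot values were left out, and 22745 of 41174 probes, above background on 4 of 4 arrays of a group, were kept. By RefSeq accession (GRCm38.p6) 24375 of the 41174 were named, and the brightest probe stood for a gene. The comparison used limma 3.58.1 (R 4.3.3, two-sided, Benjamini-Hochberg over 17299 genes), tested on simulated data, with no block. A second fit had mouse as a block, since cultures of 1 number come from the same animal (correlation of deviations across genes 0.44, 0.48, 0.41 and 0.64). Alternatives were slide as a block, normexp (on median signals, the mean signal not being used here), quantile normalization, no filter, the mean of probes, the deposited table and leaving out a mouse. Values on all arrays were given for Pcna, Mcm2 to Mcm7, and in either list the 5 smallest p and 3 largest changes. Elsewhere the 4 smallest p were named. E2f1 and E2f3 were added after their values were seen. Members and lists were chosen with earlier results of these data known.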

Additional observations from a re-analysis of the deposited data

Results flagged for a closer look

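Among 83 groups of 4 values (the members and both list medians, by group), 5 held 1 array that stood apart from the other arrays by Dixon's test, where chance gives about 1 in 20. Of these 5, 4 concern mouse 4. Its Pcgf1 shRNA array read −0.82 for E2f3 (others −0.51 to −0.47), 4.43 for Aurka (others 4.69 to 4.75) and 2.43 for Cenpf (others 1.84 to 1.90), and its control array read 2.24 for Cdc6 (others 1.86 to 1.91). For Pcna the Pcgf1 shRNA array of mouse 2 read 6.21 while the others lay at 6.16.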

How the results depend on the processing

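With limma, 0 members passed an adjusted p of 0.05 under each of 15 alternatives (600 member values), as did 0 other replication and 0 other mitosis genes. Among these are the replicate block (mouse) and 4 fits with the block and without 1 mouse, chosen after seeing the data. The count over all genes did change. It was 132 as reported, 921 with the replicate block, 77 with normexp and 0 without the filter on dim probes (2199 at an unadjusted limma p of 0.05). Leaving out 1 mouse gave 0 to 363, the highest without mouse 4 and 0 without mouse 2 or 3 (999 and 1088 unadjusted by limma). With the replicate block the counts were 284 without mouse 1, 0 without mouse 2 (2434 unadjusted), 306 without mouse 3 and 145 without mouse 4. The cause was not tested. Median changes moved by less than the SD between mice, and leaving out 1 mouse gave −0.02 to 0.07 (S), −0.02 to 0.05 (M) and 0.00 to 0.02 (S minus M). Of the member values 62, from 23 members, changed sign, all of size 0.12 or less, the largest for Chek1 in the deposited table. E2f2 stayed lower throughout, between −0.83 and −0.58, with limma adjusted p values of 0.0593 to 0.935, the highest without mouse 2. For any other member the smallest was 0.127 (Mybl2 without mouse 4). The median 95% interval reached 0.22 either side of a member's change, which limits what 4 mice resolve.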
